A study of Mus musculus with 8 samples.

Results

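Interferon-stimulated genes are the genes a cell switches on when interferon, a secreted alarm signal of viral infection, reaches its receptors. A set of 39 of them was followed in RNA-seq libraries of sorted mouse bone marrow cells that lack TOX, set against wild-type cells. The members are a list of known interferon-induced genes matched by symbol, and all 39 had a single row each among the 23846 rows of the deposited table. The table holds 4 TOX knockout and 4 wild-type libraries, made from total RNA of sorted bone marrow populations with a low-input SMARTer cDNA kit and sequenced on an Ion Proton. The sources used here give the genotype alone: the sorted gate, the strain, the age, the sex, and the way the deletion was made are not stated, nor is it stated that libraries came from separate animals, so p-values measure the spread between these libraries, which may be partly technical. The series title concerns the formation of a progenitor common to innate lymphoid cells, which are lymphocytes without rearranged antigen receptors.

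Type I interferons bind the receptor made of IFNAR1 and IFNAR2, whose kinases JAK1 and TYK2 activate transcription factors. STAT2 and IRF9 are subunits of the complex ISGF3, which binds interferon-stimulated response elements in promoters. Type II interferon acts through IFNGR1 and IFNGR2 with the kinases JAK1 and JAK2, and leads to transcription from gamma-activated sites. Lymphocytes and blood progenitors hold a low level of many of these transcripts without infection, and myeloid cells can hold more.

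The response element is written into the promoters of many members, and the stretches that hold it are shown for genes on which the results below turn. RefSeq promoter entries (GRCm38.p6, the assembly named mm10 in the submitters' processing notes) were matched by symbol for 28 of the 39 members; those without one are Dhx58, Usp18, Mx2, Ifi27l2a, Parp9, Rtp4, Oas2, Mx1, Zbp1, Ifi204 and Parp14. The 250 bases before the start were searched on both strands for the response element core, which reads GAAA, then any 2 bases, then GAAA again. In 14 of the 28 members (50%) the core was found, against 936 of all 27025 genes with an entry (3.46%). The core of the gamma-activated site, TTCNNNGAA, which can share bases with the first motif, was found in 6 of the 28 members (21.4%) and in 2197 of the 27025 genes (8.13%). A match describes letters and does not show that a factor binds there. Capitals mark each match to the response element core; on the reverse strand it reads TTTC, any 2 bases, TTTC. Each stretch is given 5′ to 3′ on the strand of its gene.
Rsad2, minus strand, chr12:26456548-26456587, match from 120 bases before the start: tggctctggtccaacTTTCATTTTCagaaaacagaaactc
Oas3, minus strand, chr5:120777710-120777749, match from 75 bases before the start: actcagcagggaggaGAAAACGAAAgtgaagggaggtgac
Irgm1, minus strand, chr11:48871421-48871465, matches from 30 bases before the start: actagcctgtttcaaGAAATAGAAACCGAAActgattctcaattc
Igtp, plus strand, chr11:58199507-58199546, match from 34 bases before the start: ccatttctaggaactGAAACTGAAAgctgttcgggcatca
Gbp2, plus strand, chr3:142620589-142620628, match from 59 bases before the start: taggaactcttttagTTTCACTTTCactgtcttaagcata
Isg15, minus strand, chr4:156200860-156200911, matches from 78 bases before the start: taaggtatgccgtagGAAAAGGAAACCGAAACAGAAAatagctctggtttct
Ifit1, plus strand, chr19:34640770-34640828, matches from 104 bases before the start: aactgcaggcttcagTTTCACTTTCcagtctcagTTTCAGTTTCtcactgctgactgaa
By the values below, the fold changes of Rsad2 and Oas3 were positive, those of Irgm1, Igtp and Gbp2 were negative, and the intervals of Isg15 and Ifit1 spanned 0, so genes holding the same core lay on both sides. Cmpk2, Herc6, Ifi47 and Isg20 had an entry with no match to this core in that window.

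Values are FPKM, the authors' measure of fragments corrected for gene length and for the reads mapped in each library, as deposited. Libraries are called by the number in their column name, 10, 11, 16 or 29, and values always follow that order. Tox itself was at 2.34, 0.107, 0.928 and 0.242 FPKM in TOX knockout libraries and at 107, 119, 123 and 92.4 in wild-type libraries, so every library fitted its label. Knockout libraries were less alike than wild-type ones: 7328 to 10600 genes reached an FPKM of 1 in them, against 10425 to 10481 in wild type, with the lowest count in knockout library 16. Globin transcripts made up 6.17 to 58.6% of a knockout library's FPKM total, with the highest share in library 29, and 3.42 to 14.8% of a wild-type library's. The 13 neutrophil markers found, of 14 listed, held 3.65 to 7.51% in knockout and 0.0804 to 2.59% in wild type; Elane and Prtn3 were listed at 0 in wild-type library 29, and Ctsg in wild-type libraries 10 and 29. Markers of innate lymphoid progenitors held 0.0276 to 0.213% in knockout and 0.7 to 1.09% in wild type, with all 14 found. Tox itself is among the 14, so part of that difference is set by the genotype. The part of these marker differences in the values below was not tested, and in bulk RNA fewer cells of a type and less RNA per cell cannot be told apart.

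None of the interferon-stimulated genes changed past the test over all genes with values as deposited. Of 39 members 38 had a mean of at least 1 FPKM and were tested with limma on log2(FPKM + 1), and 0 rose and 0 fell at a Benjamini-Hochberg adjusted p under 0.05. Over all 10693 genes tested, 0.196% rose and 1.72% fell by that rule. At an unadjusted p under 0.05, 4 members were higher and 7 lower, or 10.5% and 18.4% of those tested, beside 3.11% and 17.5% of all genes. The smallest adjusted p was 0.0872, for Ifi27l2a. The 4 higher members were Ifi27l2a, Rsad2, Oas3 and Cmpk2, and the 7 lower were Gbp2, Ifi47, Herc6, Dtx3l, Igtp, Ddx58 and Irgm1.

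Taken one by one, the members spread to both sides of the general shift between the groups. The median log2 fold change, TOX knockout minus wild type, was -0.52 over all genes and -0.23 over the 38 members, 25 of which lay above the median of all genes. Mx1, Mx2 and Oas2, which reached the filter through the knockout libraries, are among the 25. Median-ratio scaling brought the median of all genes to -0.03 and that of the members to 0.33, so the sign of the members' median depends on the scaling while the distance between the medians was 0.29 as deposited and 0.36 scaled. With that scaling 1 member, Cmpk2, rose and 0 fell, beside 0.870% and 1.09% of all genes. Leaving out knockout libraries 16 and 29 together gave 0 calls among members and medians of 0.29 for members and -0.03 for all genes. The distance between the medians also depended on the filter. At a mean FPKM of at least 5 it was 0.14, with 12 of 21 members above the median of all genes. With no filter the members' median was -0.16 relative to that of all genes, with 18 of 39 above it. The plot of fold changes shows the order of the members.

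**Figure D1:**
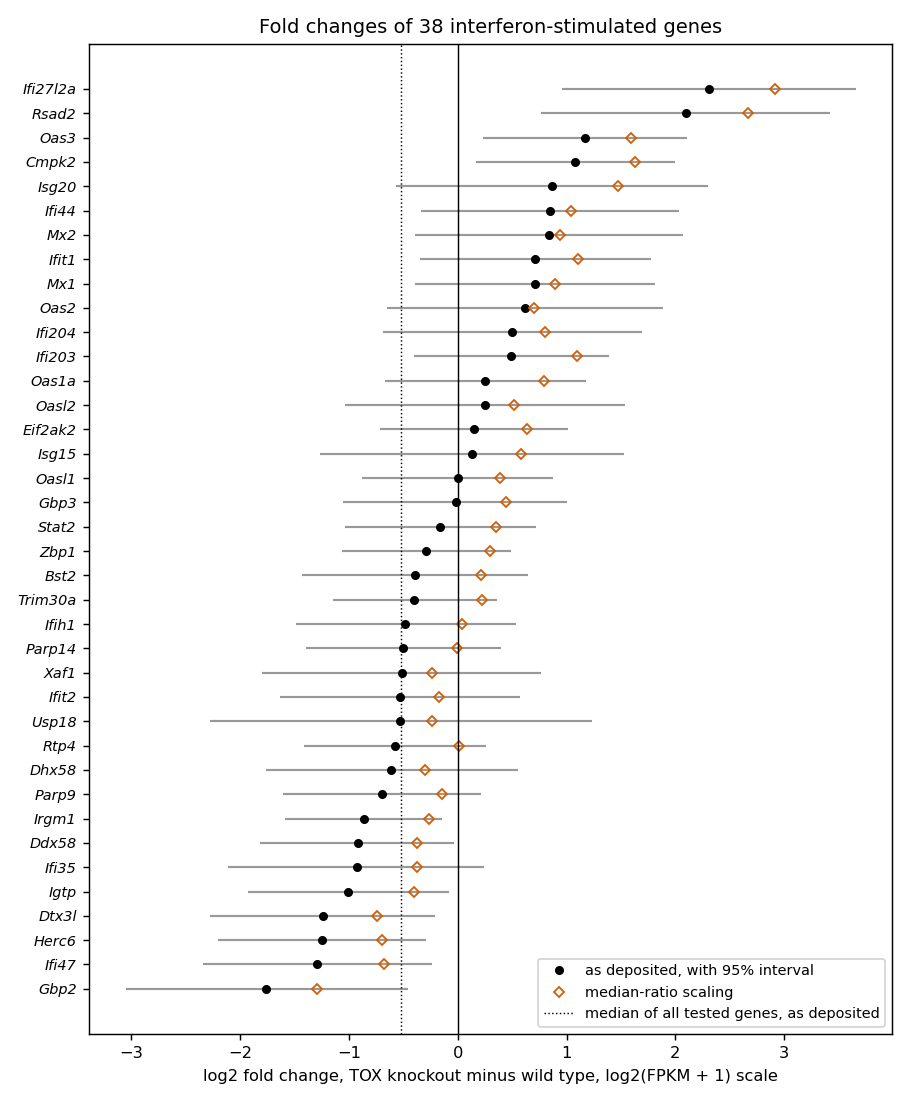
Log2 fold change (TOX knockout minus wild type, log2(FPKM + 1) scale) of 38 interferon-stimulated genes, with 95% intervals from limma on the values as deposited (black points, grey lines) and the estimate after median-ratio scaling (open diamonds). The dotted line marks the median of all tested genes at -0.52; Ifi27l2a at 2.31 and Gbp2 at -1.76 are the ends of the order.

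Library by library, the lowest values were most often in knockout library 16 and the highest in several libraries of both groups. Knockout library 16 had the lowest value of all 8 libraries for 18 of the 38 members (47.4%), and for 55.9% of all tested genes. In it 26 of the 39 members reached an FPKM of 1, against 37, 38 and 37 in knockout libraries 10, 11 and 29 and 32, 34, 37 and 34 in wild type. Knockout library 29 had the highest value for 8 members (21.1%), and for 7.46% of all tested genes. Wild-type library 29 also had the highest value for 8 members (21.1%), and for 22.3% of all tested genes. The summed FPKM of the 39 members was 652, 584, 364 and 757 in knockout libraries and 415, 434, 600 and 559 in wild type, and these sums overlap. The median SD between libraries on the log2 scale was 0.85 in knockout and 0.42 in wild type for members, and 0.79 and 0.36 for all tested genes.

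**Figure D2:**
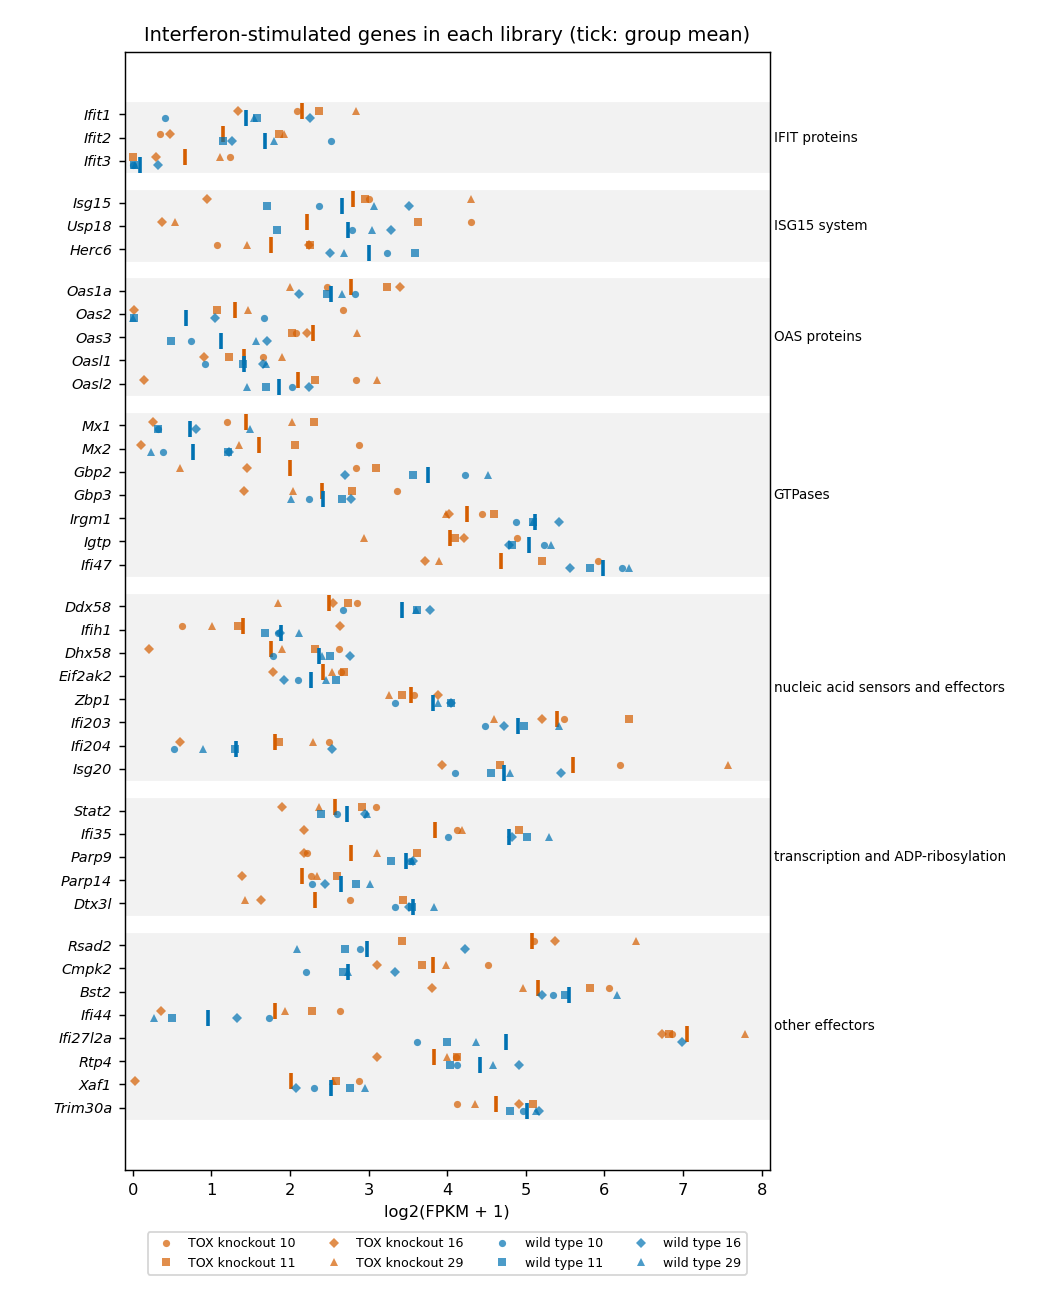
Level of each of the 39 members on the log2(FPKM + 1) scale in each TOX knockout (orange, upper) and wild-type (blue, lower) library, by role, with a tick at each group mean. Oas3 in knockout lies above all wild-type values, Herc6 and Irgm1 lie below them, and the other members overlap between the groups.

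The most abundant members differed between the groups. In TOX knockout libraries the highest mean was that of Ifi27l2a at 138 ± 54.3 FPKM (SD, n = 4), then Isg20 at 75 ± 80.0, Ifi203 at 45.2 ± 23.7, Rsad2 at 41.8 ± 30.8 and Bst2 at 41.0 ± 23.7. In wild type it was Ifi47 at 63.3 ± 15.2, then Bst2 at 47.6 ± 15.7, Ifi27l2a at 43.0 ± 55.5, Irgm1 at 34.2 ± 5.69 and Igtp at 32.3 ± 6.34. Neighbours in each of these orders lay within the larger SD of the pair, except that Ifi47 and Bst2 in wild type lay about that SD apart. A total of 13 members averaged at least 10 FPKM in knockout and 15 in wild type, and most others lay between 1 and 10. Mx1, Mx2 and Oas2 had wild-type means under 1 and reached the filter through the knockout libraries.

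The highest fold changes belonged to effector genes. Ifi27l2a, which encodes a small interferon-induced membrane protein, had 115, 112, 105 and 219 FPKM in TOX knockout libraries and 11.3, 15, 126 and 19.6 in wild type. All 4 knockout libraries and wild-type library 16 were high, the other 3 wild-type libraries were low, and the groups overlap through library 16 alone. The log2 fold change was 2.31 (SE 0.62, 95% interval 0.96 to 3.66, limma adjusted p = 0.0872). Without wild-type library 16 it was 3.06 and passed (adjusted p = 0.00482), and over all alternatives the adjusted p ran from 0.00482 to 0.665.

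Rsad2 encodes viperin, a radical SAM enzyme that makes a chain-terminating nucleotide, and Cmpk2 encodes a mitochondrial nucleotide kinase that supplies its substrate. They are neighbours on chromosome 12, 12762 bases apart (Rsad2 at 26442743 to 26456452, Cmpk2 at 26469215 to 26479837). Neither falls under the rule for giving values in each library, and both were singled out after their values were seen. Rsad2 had 33.5, 9.78, 40.4 and 83.7 FPKM in knockout and 6.43, 5.51, 17.8 and 3.26 in wild type, with a log2 fold change of 2.10 (SE 0.61, interval 0.77 to 3.42, adjusted p = 0.109). Cmpk2 had 21.9, 11.8, 7.61 and 14.9 FPKM in knockout and 3.62, 5.39, 9.13 and 5.67 in wild type, with a log2 fold change of 1.08 (SE 0.42, interval 0.17 to 2.00, adjusted p = 0.191). For both genes wild-type library 16 was the highest of its group and the only one to overlap with knockout. Without knockout library 11 Rsad2 passed (2.65, adjusted p = 0.0222), and with median-ratio scaling Cmpk2 did (1.63, adjusted p = 0.0446), while the adjusted p over the alternatives ran from 0.0222 to 0.652 for Rsad2 and from 0.0239 to 0.688 for Cmpk2.

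Neutrophil markers took a larger share of every knockout library than of any wild-type one, and within a group the order of libraries differed between these genes. Their share of the FPKM total was 7.51, 3.65, 5.5 and 7.11% in knockout and 1.92, 1.22, 2.59 and 0.0804% in wild type, where library 16 was again the highest. Wild-type library 29, with the lowest share, had the second-highest Ifi27l2a and Cmpk2 of its group, and knockout library 16, at 5.5%, the lowest of both in its group. Rsad2 was instead the lowest of its group in wild-type library 29, at 3.26 FPKM, and the second-highest in knockout library 16, at 40.4. The neutrophil elastase gene Elane had 56.3, 150, 10.8 and 667 FPKM in knockout and 0.0855, 0.764, 85.8 and 0 in wild type. The monocyte and macrophage markers, 9 found of 10, made up 0.151 to 0.502% of each knockout total and 0.0448 to 0.226% of each wild-type total. The part of these cells in the higher values of Ifi27l2a, Rsad2 and Cmpk2 was not tested.

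Isg20, an exonuclease that degrades RNA, had 72.5, 24.5, 14.3 and 189 FPKM in knockout and 16.2, 22.5, 42.7 and 26.9 in wild type. Its 2 highest values were in knockout libraries 29 and 10, and the groups overlap (log2 fold change 0.87, SE 0.66, interval -0.57 to 2.30, adjusted p = 0.420). Those libraries also had the highest globin shares, at 58.6 and 25.6%, against 6.17 and 20.9% in knockout libraries 11 and 16 and 3.67, 3.42, 14.8 and 5.52% in wild type. The part of red cell precursors in this value was not tested.

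**Figure D3:**
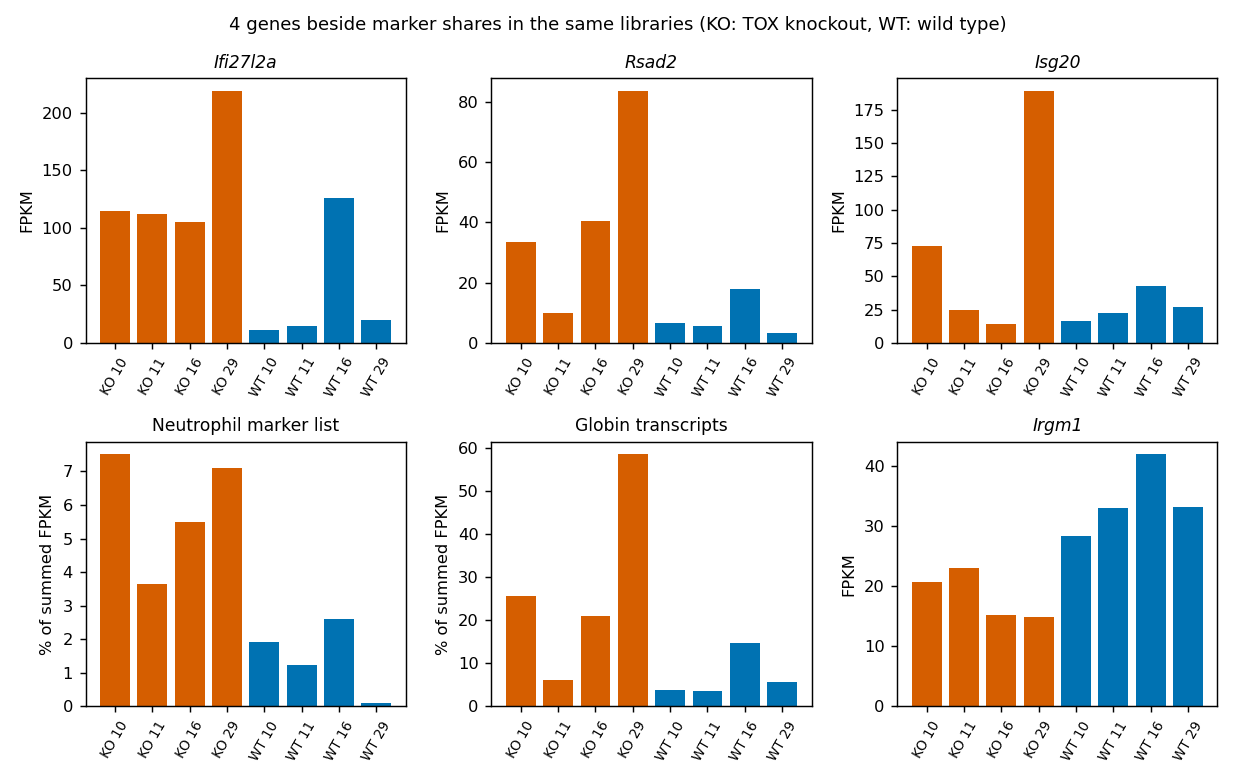
FPKM of Ifi27l2a, Rsad2, Isg20 and Irgm1, and the share of summed FPKM held by neutrophil markers and by globin transcripts, in each library (orange, TOX knockout; blue, wild type). Wild-type library 16 has the highest value of its group in every panel: Ifi27l2a (126), Rsad2 (17.8), Isg20 (42.7), Irgm1 (42.0), neutrophil share (2.59%) and globin share (14.8%).

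The remaining effectors had intervals that spanned 0 and did not pass. Bst2, or tetherin, which holds virus particles at the cell surface, had 65.4, 55.2, 13 and 30.3 FPKM in knockout and 39.5, 44.3, 36.0 and 70.6 in wild type, with no separation (log2 fold change -0.39, SE 0.48, interval -1.43 to 0.65, adjusted p = 0.606, and 0.21 with median-ratio scaling). It is also a surface marker of plasmacytoid dendritic cells, the strongest producers of type I interferon, whose 10 listed markers, Bst2 among them, took up 0.0481 to 0.108% of each knockout total and 0.0487 to 0.0565% of each wild-type total, with Klk1 listed at 0 in 5 libraries and Siglech in wild-type library 10. Ifi44 averaged 3.05 ± 2.09 FPKM in knockout and 1.11 ± 0.983 in wild type (log2 fold change 0.85). Rtp4 averaged 13.8 ± 4.21 and 21.0 ± 6.38 (-0.58 as deposited, 0.01 with median-ratio scaling), and Trim30a, a restraint on NF-kappaB signalling, 24.5 ± 7.91 and 31.5 ± 3.73 (-0.40 as deposited, 0.22 with median-ratio scaling) in knockout and wild type. Xaf1, which binds the apoptosis inhibitor XIAP, had a log2 fold change of -0.51, with 0.0179 FPKM in knockout library 16 and 3.23 or more elsewhere.

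The OAS enzymes sense double-stranded RNA and make the second messenger that activates RNase L, and the OASL proteins are their relatives. Oas3, on chromosome 5 (120753098 to 120777659), had 3.23, 3.09, 3.64 and 6.25 FPKM in TOX knockout and 0.667, 0.404, 2.26 and 1.97 in wild type. It was the single member whose knockout values all lay above the wild-type values, 2.63% of those tested against 1.09% of all genes. Its log2 fold change was 1.17 (SE 0.43, interval 0.23 to 2.11, adjusted p = 0.179), with 0.93 and 1.42 among libraries with barcodes 17 to 20 and 40 to 43. Its neighbour Oas2, 3249 bases away, averaged 2.06 ± 2.32 FPKM in knockout and 0.817 ± 1.04 in wild type and overlapped.

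Oas1a had 4.53, 8.40, 9.53 and 2.99 FPKM in knockout and 6.12, 4.55, 3.32 and 5.32 in wild type, the groups overlapping (log2 fold change 0.25, interval -0.67 to 1.18). Oasl2 had 6.13, 4.01, 0.102 and 7.65 in knockout and 3.06, 2.25, 3.74 and 1.75 in wild type (0.25, interval -1.04 to 1.54), where knockout library 16 alone stood below wild type. Oasl1 averaged 1.77 ± 0.827 FPKM in knockout and 1.73 ± 0.619 in wild type (0.00, interval -0.88 to 0.88). Oas1a has near-identical relatives such as Oas1g, between which reads may have been split. None of the 5 OAS members passed, and their median was 0.25 as deposited and 0.70 with median-ratio scaling. The scaled median is the value of Oas2, which reached the filter through the knockout libraries.

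Of the 7 GTPases 5 had negative fold changes, 3 lay above the median of all genes, and none was called. Irgm1, Igtp and Ifi47 are p47 immunity-related GTPases, which act on vacuoles of intracellular microbes, and Gbp2 and Gbp3 are guanylate-binding proteins of the same defence. These families are known to be induced above all by type II interferon. Irgm1, on chromosome 11 (48865249 to 48871346), had 20.7, 23.1, 15.2 and 14.8 FPKM in TOX knockout and 28.4, 33.0, 42.0 and 33.2 in wild type, and the groups do not overlap. Its log2 fold change was -0.86 (SE 0.34, interval -1.59 to -0.14, adjusted p = 0.190), or -0.35 relative to the median of all genes, and -0.26 with median-ratio scaling. Irgm1 and Herc6 were the 2 members whose knockout values all lay below wild type, 5.26% of those tested against 11.0% of all genes.

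Ifi47 had 59.6, 36.0, 12.2 and 13.9 FPKM in knockout and 73.5, 55.2, 46.2 and 78.4 in wild type. Knockout libraries 16 and 29 were far below wild type, while library 10 lay within its range (log2 fold change -1.29, SE 0.49, interval -2.34 to -0.24, adjusted p = 0.182). Without libraries 16 and 29 its fold change was -0.41. Gbp2, the member with the lowest fold change, had 6.14, 7.54, 1.75 and 0.521 FPKM in knockout and 17.8, 10.8, 5.52 and 22.0 in wild type. It overlaps through wild-type library 16 alone (-1.76, SE 0.60, interval -3.05 to -0.46, adjusted p = 0.155), and its fold change was -0.79 without knockout libraries 16 and 29. Igtp averaged 17.2 ± 8.98 FPKM in knockout and 32.3 ± 6.34 in wild type (-1.01, adjusted p = 0.219).

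Gbp2, Ifi47, Igtp and Irgm1 stayed lower with median-ratio scaling (-1.29, -0.68, -0.40 and -0.26), with quantile normalization and with globin taken out, and none was called under any of these. Gbp3 did not share that direction, at 4.99 ± 3.35 FPKM in knockout and 4.5 ± 1.32 in wild type (-0.02 as deposited, 0.44 with median-ratio scaling). The dynamin-like GTPases Mx1 and Mx2, which block virus replication and answer to type I and III interferon, had log2 fold changes of 0.71 and 0.84 with knockout means of 2.12 ± 1.69 and 2.80 ± 2.70 FPKM against 0.766 ± 0.742 and 0.784 ± 0.631 in wild type, and did not pass (adjusted p = 0.397 and 0.375).

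Further GTPases of both families were listed among other interferon-induced genes and were grouped after their values were seen. Of 10 listed 9 were tested, 0 were called, 8 had a negative fold change as deposited and 7 with median-ratio scaling, and 7 lay below the median of all genes. Tgtp2 had 24.8, 17.7, 6.37 and 1.13 FPKM in knockout and 67.5, 60.4, 41.0 and 64.1 in wild type, giving -2.64 on the log2 scale (SE 0.64, adjusted p = 0.06). It passed without knockout library 11 (-2.98, adjusted p = 0.033) and without knockout libraries 16 and 29 (-1.41, adjusted p = 0.0257). Tgtp1, a near-identical copy with which it may share reads, was at -2.32, and Gbp6 at -1.73 (adjusted p = 0.102 and 0.0843), and Gbp6 passed without knockout library 11 (adjusted p = 0.0134). In these 3 and in Gbp7 (-0.74) all knockout values lay below wild type, a pattern found in 11.0% of all genes.

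ISG15 is a ubiquitin-like protein, HERC6 the mouse ligase that attaches it and USP18 the protease that removes it and also dampens the type I receptor. Isg15 had 7.04, 6.74, 0.927 and 18.7 FPKM in TOX knockout and 4.16, 2.28, 10.4 and 7.42 in wild type. The highest and the lowest value were both in knockout, and the groups overlap (log2 fold change 0.13, SE 0.65, interval -1.27 to 1.53, adjusted p = 0.905). Usp18 had 18.7, 11.4, 0.300 and 0.457 FPKM in knockout and 5.91, 2.58, 8.73 and 7.27 in wild type. Knockout libraries 10 and 11 lay above all wild-type values and libraries 16 and 29 below them, so the fold change of -0.53 (interval -2.28 to 1.23, adjusted p = 0.684) averages opposite values, and it was 1.23 without libraries 16 and 29.

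Herc6, on chromosome 6 (57580992 to 57665136), had 1.10, 3.76, 3.74 and 1.75 FPKM in knockout and 8.42, 11, 4.67 and 5.45 in wild type. All knockout values lay below all wild-type values, with a log2 fold change of -1.25 (SE 0.44, interval -2.20 to -0.29, adjusted p = 0.167). It was -1.21 among libraries with barcodes 17 to 20, -1.28 among those with barcodes 40 to 43, and -0.70 with median-ratio scaling. With library weights Herc6 passed (adjusted p = 0.0274), and its adjusted p ran to 0.663 over the alternatives.

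The IFIT proteins bind foreign RNA ends and block translation. Ifit1 had 3.24, 4.17, 1.53 and 6.13 FPKM in knockout and 0.328, 1.98, 3.79 and 1.91 in wild type (log2 fold change 0.71, SE 0.49, interval -0.35 to 1.78, adjusted p = 0.384). Knockout libraries 10 and 16 lay within the wild-type range, and wild-type libraries 11, 16 and 29 within the knockout range. Ifit2 had 0.272, 2.63, 0.389 and 2.79 in knockout and 4.74, 1.22, 1.40 and 2.47 in wild type, with no separation (-0.53, interval -1.63 to 0.57, and 0.14 with quantile normalization). Ifit3 stayed under the filter, at 1.35, 0, 0.230 and 1.16 in knockout and 0, 0.0144, 0.247 and 0.0201 in wild type. It has a near-identical neighbour, Ifit3b, with which reads may have been shared, and no value of that gene was used here.

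Sensors and effectors of foreign nucleic acid had fold changes on both sides of 0, and 6 of the 8 lay above the median of all genes. Ddx58, which encodes the RNA sensor RIG-I, averaged 4.84 ± 1.60 FPKM in TOX knockout and 10.2 ± 3.23 in wild type (log2 fold change -0.92, interval -1.82 to -0.03, adjusted p = 0.231), and overlapped through wild-type library 10 at 5.41. Ifih1, encoding the RNA sensor MDA5, averaged 2.08 ± 2.12 and 2.71 ± 0.460 (-0.48 as deposited, 0.04 with median-ratio scaling), and Dhx58, encoding their relative LGP2, 3.01 ± 2.14 and 4.31 ± 1.39 (-0.61) in knockout and wild type. Eif2ak2, encoding the kinase PKR that halts translation, was at 4.5 ± 1.39 and 3.90 ± 1.03 (0.15). Of these 8 sensors and effectors, Isg20 included, none passed, with a median of -0.07. Zbp1, a sensor of Z-form nucleic acid, was at 10.8 ± 2.23 and 13.4 ± 3.03 (-0.29 as deposited, 0.30 with median-ratio scaling).

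Ifi203 and Ifi204 belong to the PYHIN family of DNA-binding proteins, a cluster of similar genes on chromosome 1. Ifi203 had 43.8, 78.3, 35.8 and 23.1 FPKM in knockout and 21.4, 30.4, 25.5 and 41.7 in wild type, highest in knockout library 11 and overlapping between the groups (log2 fold change 0.49, SE 0.41, interval -0.40 to 1.39, adjusted p = 0.454). Ifi204 averaged 2.93 ± 1.81 in knockout and 1.89 ± 1.98 in wild type (0.50, adjusted p = 0.565).

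All 5 members of the transcription and ADP-ribosylation group had negative fold changes as deposited, with a median of -0.70, close to that of all genes, and -0.14 with median-ratio scaling, where Stat2 turned positive. Ifi35, which forms a complex with NMI, had 16.4, 29.1, 3.51 and 17.2 FPKM in TOX knockout and 15.1, 31.2, 27.3 and 38.1 in wild type (-0.93, SE 0.54, interval -2.11 to 0.24, adjusted p = 0.322). Parp9, which acts with the ubiquitin ligase DTX3L, had 3.63, 11.3, 3.51 and 7.61 in knockout and 10.5, 8.71, 10.8 and 10.7 in wild type (-0.70, interval -1.61 to 0.21, adjusted p = 0.331). Ifi35 in knockout libraries 10, 11 and 29 lay within the wild-type range, and Parp9 in knockout library 11 lay above every wild-type value. For both genes knockout library 16 was the lowest.

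Dtx3l averaged 4.85 ± 3.80 FPKM in knockout and 10.9 ± 1.77 in wild type (log2 fold change -1.24, interval -2.28 to -0.21, adjusted p = 0.187), and -0.46 without knockout libraries 16 and 29. Dtx3l and Parp9 overlap by 558 bases on chromosome 16, and since no source used here states that strand was kept, reads of that stretch cannot be assigned. Parp14, an ADP-ribosyltransferase gene 55132 bases from Dtx3l, averaged 3.65 ± 1.45 and 5.40 ± 1.51 (-0.50) in knockout and wild type. Stat2, the ISGF3 subunit, averaged 5.24 ± 2.19 and 5.73 ± 1.30 (-0.16 as deposited, 0.35 with median-ratio scaling).

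Genes that make, receive and relay interferon were read from lists beside the members. Of 10 interferon genes 9 lay under the filter. Ifna1 and Ifna2 were at 0.465 and 0.691 FPKM in knockout library 16, the library with the fewest genes detected. In every other library of both groups they were listed at 0, apart from Ifna2 at 0.0143 in knockout library 11. Ifng, the type II interferon of NK cells and T cells, had 7.09, 4.90, 0.256 and 0 in TOX knockout and 0, 0.943, 0 and 0.00775 in wild type, high in knockout libraries 10 and 11 (1.23, adjusted p = 0.287). It reached the filter through the knockout libraries alone, with a wild-type mean of 0.238. It passed with library weights (2.06, adjusted p = 0.032) and in the fit that drops knockout libraries 16 and 29, where it was low (2.55, adjusted p = 0.0202). None of 5 tested receptor genes passed, with a median of 0.10. Ifngr1 had a log2 fold change of -0.62. Ifnar2 averaged 33.4 ± 22.0 FPKM in knockout and 31.0 ± 3.97 in wild type (-0.56), and Il10rb, a subunit shared with the type III receptor, 16.2 ± 11.1 and 9.26 ± 1.44 (0.51).

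Among 12 kinases and transcription factors 0 passed as deposited. Jak1, at 45.0, 49.8, 23.1 and 16.6 FPKM in knockout and 73.7, 74.7, 62.3 and 67.3 in wild type, had non-overlapping groups (log2 fold change -1.16, SE 0.39, adjusted p = 0.155). Jak2, the kinase of the type II receptor, also did, at 9.69 ± 7.48 in knockout and 32.9 ± 8.49 in wild type (-2.0, adjusted p = 0.0977). These 2 were 16.7% of the 12 tested, and all knockout values lay below wild type in 11.0% of all genes. Jak2 passed without knockout library 11 (-2.40, adjusted p = 0.0306) and with quantile normalization (-1.50, adjusted p = 0.0492). It also passed with library weights (-1.41, adjusted p = 0.0325) and with a block on the column number (adjusted p = 0.029). With median-ratio scaling it did not (-1.47, adjusted p = 0.0804). Irf1 averaged 29.4 ± 16.4 and 43.0 ± 6.67 (-0.85), with 4.97 in knockout library 29. Irf8, a factor of myeloid and dendritic cells, averaged 46.9 ± 28.8 in knockout and 11.6 ± 5.09 in wild type (1.69, adjusted p = 0.145) and passed with median-ratio scaling (2.26, adjusted p = 0.0121) and without knockout libraries 16 and 29 (2.49, adjusted p = 0.00565). Irf9, which joins STAT2 in ISGF3, did not pass, and the sign of its fold change turned with median-ratio scaling (-0.24 as deposited, 0.36 scaled).

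Of 7 tested inhibitors 1 fell, beside 1.72% of all genes. Socs1, which shuts off JAK kinases at both kinds of interferon receptor and at cytokine receptors, had 5, 3.42, 13 and 2.27 FPKM in TOX knockout and 58, 25, 47.7 and 42.1 in wild type, with every knockout library below every wild-type one (log2 fold change -2.84, SE 0.48, adjusted p = 0.00794). Of the 7 inhibitors 1 (14.3%) had that separation, against 11.0% of all genes. Socs1 did not pass with median-ratio scaling (-2.23, adjusted p = 0.104) or among libraries with barcodes 17 to 20 alone (-2.55, adjusted p = 0.628). Ptpn6, the phosphatase SHP-1, averaged 37.3 ± 14.1 in knockout and 20.4 ± 2.35 in wild type (0.76, adjusted p = 0.256 as deposited) and passed with median-ratio scaling and quantile normalization (1.37 and 1.15, adjusted p = 0.0275 and 0.0338). Samhd1, a nucleotide hydrolase, averaged 23.3 ± 2.08 and 26.1 ± 7.97 (-0.12). Of 10 tested sensors and adaptors none passed as deposited. Tmem173 passed without knockout library 11 (-1.87, adjusted p = 0.0381), and Ticam1 with library weights (-1.66, adjusted p = 0.0353). Tmem173, encoding STING, averaged 26.4 ± 21.0 in knockout and 57.0 ± 7.21 in wild type (-1.42, adjusted p = 0.171), Myd88 15 ± 4.43 and 17.0 ± 6.30 (-0.13) and Tbk1 12.8 ± 2.26 and 13.9 ± 2.51 (-0.11), the fold changes of the last 2 turning positive with median-ratio scaling.

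A wider list held other interferon-induced genes. Of 51 tested 0 passed as deposited, 15 had positive and 36 negative fold changes, and the median was -0.63 beside -0.52 for all genes. In 8 of them (15.7%) all knockout values lay below wild type, against 11.0% of all genes. The most abundant were B2m, the light chain of MHC class I, at 1749 ± 979 FPKM in knockout and 2691 ± 249 in wild type (-0.83), Ly6e at 365 ± 255 and 578 ± 154 (-0.96), and the immunoproteasome subunit Psmb8 at 158 ± 92.4 and 338 ± 131 (-1.19). With median-ratio scaling 3 rose, Epsti1, Ms4a4c and Ifi205, named after their values were seen, beside 0.870% of all genes. Epsti1 had 54.8, 37.4, 25.1 and 14.3 FPKM in knockout and 14.2, 9.36, 13 and 14.2 in wild type, a log2 fold change of 1.17 as deposited (adjusted p = 0.176) and 1.76 scaled (adjusted p = 0.0309). Fold changes of the list ran from -2.64 for Tgtp2 to 3.19 for Ifitm1. Ifitm1 averaged 111 ± 133 FPKM in knockout and 6.12 ± 6.14 in wild type, and the groups overlap (adjusted p = 0.153). It passed with library weights (3.73, adjusted p = 0.0115). Ifitm3, Ifitm2 and Ube2l6 were at 2.02, 1.79 and 1.76, also named after their values were seen.

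**Figure D4:**
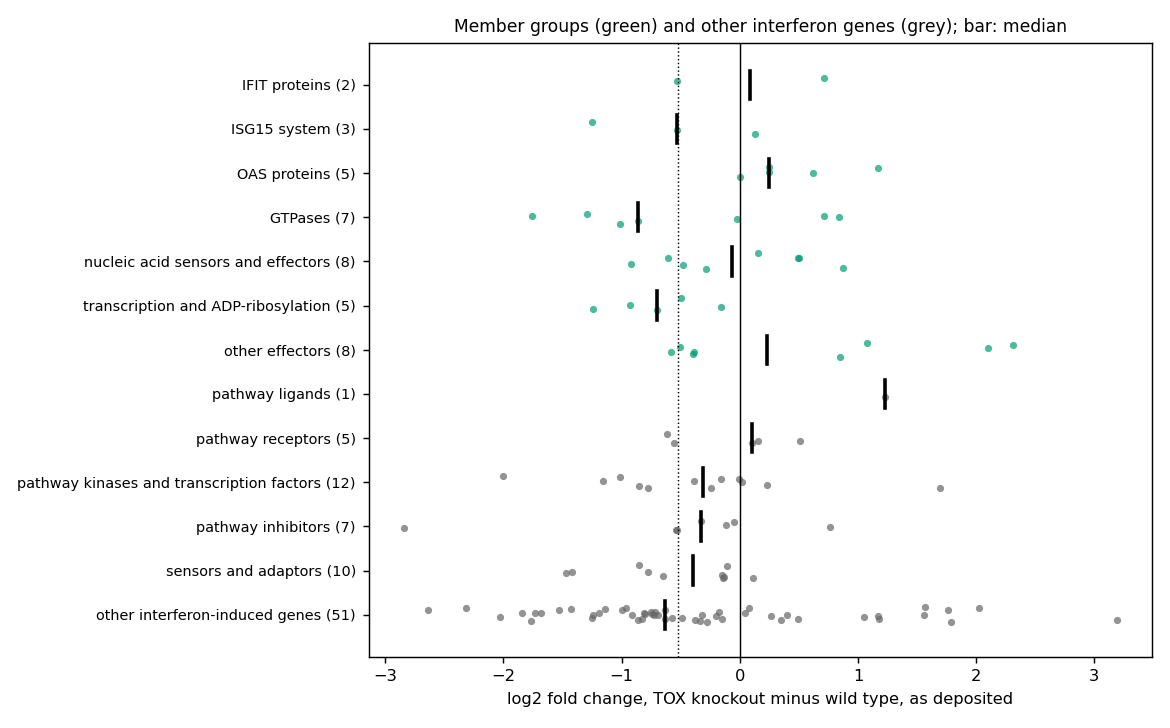
Log2 fold change (TOX knockout minus wild type, as deposited) of each tested gene, by role of the members (green) and by list of other interferon genes (grey), with the number tested in brackets, a bar at each median, and a dotted line at the median of all genes (-0.52). Stat2 and Usp18 appear both as members and in a pathway list; the medians run from -0.86 for GTPases to 1.23 for the single tested ligand gene, Ifng.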

How the data were processed

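The members, the lists and the tests were chosen with earlier results of these data known. The authors deposited 1 table of FPKM values, made with Cufflinks on mm10 per the submitters' processing notes; the aligner, the annotation, the version and read counts are unstated in the labels and notes at hand, so the depth behind a value is unknown and no counting interval is given. Because FPKM divides by all mapped reads, abundant globin transcripts can lower other values. With globin taken out and values rescaled, the median log2 fold change of all genes was -0.38, against -0.52 as deposited. The part of globin in the general shift was not tested. Column names gave each library's group; their numbers are not the replicate numbers of the sample titles. All 8 value columns were used. Starts were read as counted from 0 (55.8% of 21909 matched symbols then had the RefSeq start, 3.29% otherwise) and printed counted from 1.

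Values were tested as log2(FPKM + 1), which understates changes of low genes, over 10693 genes whose FPKM averaged 1 or more, with limma 3.58.1 in R 4.3.3 (empirical Bayes, mean-variance trend, Benjamini-Hochberg adjustment, threshold 0.05). An exact permutation test of 4 against 4 libraries cannot go below 0.0286 and was not used. The test was checked on simulated data. Values in every library are given for members whose groups do not overlap, the 2 most abundant of each role and the ends of the fold-change order; of other lists, for called genes and some of the 3 most abundant. Other genes given with values, such as Rsad2, Cmpk2, Igtp, Dtx3l, Jak2, Irf8, Elane and Tgtp2, were chosen after their values were seen. Alternatives covered pseudocount, filter, scaling, weights, trend, barcode set and libraries left out.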

Additional observations from a re-analysis of the deposited data

Results flagged for a closer look

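Among 78 groups of 4 libraries, 1 library stood far from the other 3 in 7, on the log2(FPKM + 1) scale, by Dixon's 95% criterion, which divides the gap to the nearest library by the whole range. Chance flags about 1 group in 20. In 3 of the 7 the library was TOX knockout library 16, the one with the fewest genes detected: Xaf1 at 0.0179 FPKM, Eif2ak2 at 2.46 and Rtp4 at 7.59 were each below the other knockout values. Ifi27l2a at 219 in knockout library 29 was above the other knockout libraries. In wild type, Ifit3 at 0.247 in library 16 was above, and Ddx58 at 5.41 in library 10 and Parp9 at 8.71 in library 11 were below the other libraries of the group.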

How the results depend on the processing

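Over 21 other settings the tested members gave 778 fits, of which 767 kept the side of the threshold that each gene had as deposited, 11 passed where it had not, and none was called in the opposite direction. As deposited 0 members rose and 0 fell, with a median log2 fold change of -0.23. With library weights 3 rose (Cmpk2, Ifi27l2a, Rsad2) and 1 fell (Herc6), and the median was 0.19. With median-ratio scaling and with quantile normalization 1 rose (Cmpk2), with medians of 0.33 and 0.27. Among libraries with barcodes 40 to 43 alone 1 rose (Ifi27l2a), and without knockout libraries 16 and 29 the median was 0.29. Leaving out single libraries gave 0 to 1 that rose, 0 that fell and medians from -0.26 to 0.07; the 1 was Ifi27l2a without wild-type library 16 and Rsad2 without knockout library 11. A replicate block on the column number, which did not pair the libraries (deviations of same-numbered libraries correlated at 0.0387, 0.258, 0.00621 and -0.0206 for numbers 10, 11, 16 and 29, and not every library correlated best with its own number), gave 2 that rose (Ifi27l2a and Rsad2). Beyond scaling and fewer libraries, the cause of these changes was not tested. Over all genes the calls were 21 higher and 184 lower as deposited, 93 and 117 with median-ratio scaling, 271 and 457 with weights, 77 and 267 with the block. The members' median stood above that of all genes by 0.14 to 0.44 in every setting except with no filter, where it was -0.16 relative to it. FPKM gives no read depth, and a missed threshold does not show that a gene was unchanged.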
